A study of Mus musculus with 58 samples.

Results

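Livers of old mice that had been given Myc in their hepatocytes were compared with livers given a fluorescent control protein, with all animals of both groups on the JAK inhibitor ruxolitinib. The comparison takes 23 of the 58 RNA-seq libraries of the series: every library labelled as old, Myc and ruxolitinib (14) and every library labelled as old, mApple and ruxolitinib (9), chosen by label alone. All were whole livers of male C57BL6/J mice. Each mouse had received an adeno-associated virus of serotype 8 in which the TBG promoter, which is active in hepatocytes, drives either Myc (AAV8-TBG-Myc) or mApple, a red fluorescent protein that served as the control (AAV8-TBG-mApple). Both groups were gavaged with ruxolitinib at 45 mg/kg, 2 times daily with a break at weekends, for 30 days. The mice were 25 months old in the first batch (4 Myc and 4 mApple libraries) and 24 months old in the second (10 Myc and 5 mApple), so age and batch cannot be told apart. The labels number the libraries without stating that each is a separate mouse, and p-values measure the spread between these libraries. Polyadenylated RNA was sequenced from both ends, and the deposited exon counts do not separate reads of the vector's Myc from those of the mouse's own gene.

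Myc is a transcription factor that binds DNA together with Max, with the sequence CACGTG, the canonical E-box, as its best known site. It is known for raising the genes of ribosome assembly, nucleotide synthesis and the cell cycle, and in liver a high level drives growth and can lead to tumours. JAK1 and JAK2, the kinases that ruxolitinib inhibits, carry signals from growth hormone, interferons and interleukin 6 to STAT transcription factors. Growth hormone acting through this route sets the male and female patterns of hepatocyte genes, and interferons induce antiviral genes through it.

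Exon counts ran from 11478479 to 40982340 per library, with a median of 18188946. Albumin was between 31908 and 158919 counts per 1000000 (CPM) in all 23 libraries, and the summed level of 54 hepatocyte secreted proteins was between 138486 and 338907 CPM, as in liver tissue. In a principal component analysis of 6931 genes the first component held 51.8% of the variance, and Myc libraries 860 and 861 of the first batch lay apart on it at 65.2 and 64.2, against -23.3 to 34.5 for the others. These livers had MHC class II sums of 3076 and 4591 CPM against 1548 CPM in the highest mApple library, and many of the results are also given without them. In mApple library 864 the acute phase genes summed to 137545 CPM, against at most 65466 CPM in the Myc livers, and its neutrophil markers summed to 1098 CPM.

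Myc itself was higher in every Myc liver than in every mApple liver. The gene (chr15:61985341-61990361, mm10) had 24.9 CPM in the lowest of the 14 Myc livers, a median of 33.2 and 114 in the highest. The 9 mApple livers had 2.41, 8.12 and 20.4 CPM. The groups did not overlap, and the 4 Myc livers of the first batch (55.1 to 114 CPM) were above all 10 of the second (24.9 to 46.9 CPM). Its log2 fold change was 2.54 ± 0.24 (SE), with an adjusted p of 1.25e-06 by edgeR's quasi-likelihood test with batch as a covariate and Benjamini-Hochberg adjustment over 14010 genes, which is the test behind every adjusted p here unless another is named. Within batches the difference was 2.51 and 2.55 log2.

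Of the other genes of the Myc network, Mycn, a paralog of Myc, fell. It had 0.176, 0.534 and 2.36 CPM (lowest, median and highest) with Myc and 0.777, 2.91 and 6.48 CPM with mApple, and 10 of the 14 Myc livers were below the lowest mApple liver. The log2 fold change was -1.96 ± 0.29, with an adjusted p of 0.000142. Max, the binding partner of Myc, rose by 0.36 ± 0.09 log2 (adjusted p 0.00977), and Aurka, a mitotic kinase whose protein binds the N-Myc protein, rose by 1.35 ± 0.29 (adjusted p 0.00271).

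Across all genes, 1177 (8.4%) were higher and 835 (5.96%) were lower with Myc at an adjusted p under 0.05. Most changes were small: the median log2 fold change was 0.52 among the higher genes and -0.49 among the lower, and 255 of the higher and 81 of the lower genes changed by at least 1 log2. In 27 genes (0.193% of those tested) all 14 Myc livers lay above all 9 mApple livers, and in 7 genes (0.05%) all lay below. The 27 include Myc, the nucleolar genes Ddx21, Dkc1, Npm1, Polr1a and Wdr43, the ribosomal protein genes Rpl12, Rplp1 and Rps4x, Atic of purine synthesis, the valyl-tRNA synthetase Vars, the importin Ipo5 and E2f3. The 7 are Ablim3, Bambi, C1rl, Dhrs1, Flt3l, Gabbr2 and Pdzk1. The scaling matters to the split: TMM normalisation gave 58.5% of calls as higher, whereas scaling to library totals gave 2042 higher and 305 lower genes (87% higher) and moved the median of all genes from 0.01 to 0.13 log2. The first batch alone, with 4 libraries against 4, gave no gene past the threshold in either direction (2171 of 13566 had an unadjusted p under 0.05 and the smallest adjusted p was 0.122).

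**Figure D1:**
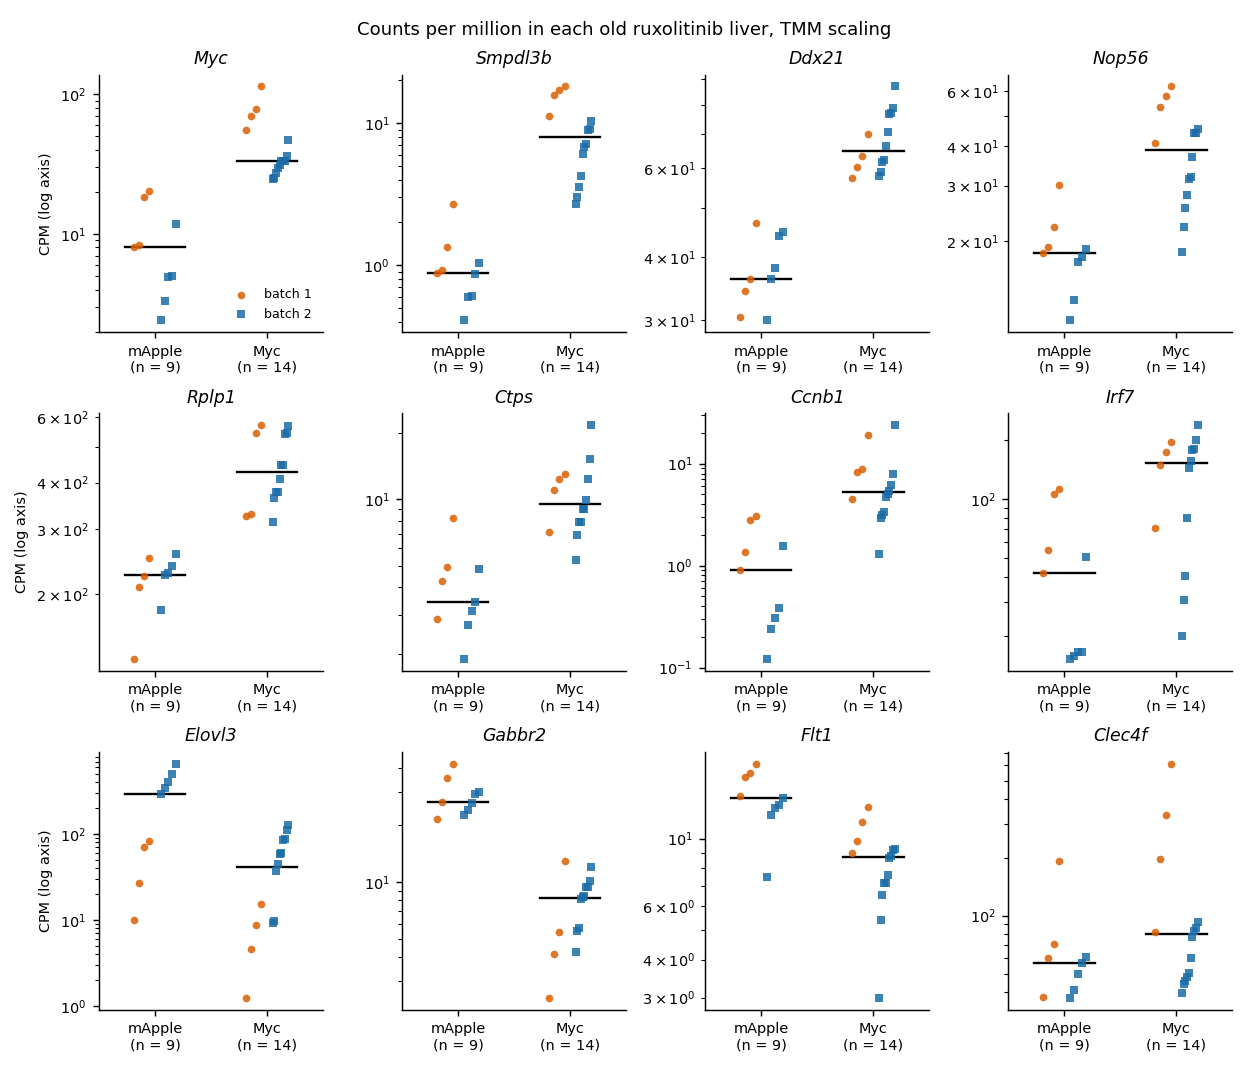
CPM in each of the 23 libraries for 12 genes, on log axes, with orange circles for the first batch, blue squares for the second and a black bar at the median of each group. Myc, Smpdl3b, Ddx21 and Rplp1 have all Myc livers above all mApple livers, Gabbr2 has all below, and Irf7 and Clec4f overlap.

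Genes that build ribosomes rose together. This and the other lists were chosen with earlier results of these data known, so their counts are descriptions. Of 16 tested genes of ribosomal RNA transcription 10 rose and none fell, of 37 genes of the small subunit processome and the small nucleolar ribonucleoproteins 21 rose and none fell, and of 36 genes of large subunit assembly 25 rose and none fell. Their median log2 fold changes were 0.33, 0.30 and 0.39, beside 0.01 over all genes tested. Polr1a, the largest subunit of RNA polymerase I, rose by 0.71 ± 0.11 log2 (adjusted p 0.000244). Ncl, the nucleolar protein nucleolin, rose by 0.70 ± 0.09 (adjusted p 4.4e-05).

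Dkc1, the pseudouridine synthase of the box H/ACA particles (chrX:75095854-75109776), had 21.5, 28.1 and 37.7 CPM with Myc and 13.6, 14.7 and 18.2 CPM with mApple. The groups did not overlap, and the log2 fold change was 0.89 ± 0.10 (adjusted p 7.62e-06). Nop56, a core protein of the box C/D particles (chr2:130274412-130279313), had 18.4, 39 and 62.1 CPM against 11.2, 18.3 and 30.2 CPM. Here 10 of the 14 Myc livers were above the highest mApple liver, with a log2 fold change of 1.14 ± 0.16 (adjusted p 6.58e-05). Ddx21, a nucleolar RNA helicase (chr10:62580247-62602298), had 57.3, 64.8 and 87.2 CPM against 30, 36.2 and 46.7 CPM. Every Myc liver was above every mApple liver for it, at 0.82 ± 0.09 log2 (adjusted p 7.91e-06). Npm1, the abundant nucleolar chaperone nucleophosmin (chr11:33152498-33163206), likewise separated the groups, at 216, 274 and 470 CPM against 133, 168 and 183 CPM (0.87 ± 0.12 log2, adjusted p 8.01e-05). Nle1, which acts in maturation of the large subunit, rose by 1.02 ± 0.14 log2 (adjusted p 7.01e-05).

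The proteins of the ribosome itself moved as a block. Of 73 cytosolic ribosomal protein genes 69 rose and none fell, beside 8.4% of all genes, with a median of 0.52 log2 and a range of 0.22 to 1.01. Rplp1, a protein of the ribosomal stalk (chr9:61913283-61914510), had 313, 427 and 571 CPM with Myc and 134, 225 and 257 CPM with mApple, with no overlap, and its log2 fold change was 1.01 ± 0.14 (adjusted p 6.24e-05). Rpl12, which forms the base of the stalk, rose by 0.97 ± 0.12 (adjusted p 2.61e-05). Summed over the 73 genes, the Myc livers had 13083, 19478 and 22797 CPM and the mApple livers 9222, 12862 and 14712 CPM, and 13 of the 14 Myc livers were above the highest mApple liver. Ribosomal protein genes have near-identical copies elsewhere in the genome, and how reads were shared among copies is uncertain for single members.

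The machinery around the ribosome rose in part. Of 21 translation factors 12 rose and none fell, with a median of 0.30 log2. Eef1b2, an exchange factor of elongation factor 1, rose by 0.83 ± 0.13 (adjusted p 0.000248). Of 21 tRNA synthetases and their partners 8 rose and 1, the alanyl-tRNA synthetase Aars, fell (-0.30 log2, with an adjusted p of 0.0563 without libraries 860 and 861). With library totals 13 rose. Vars had 63.5, 82.2 and 88.9 CPM with Myc against 40.3, 44.7 and 63 CPM, with no overlap (0.74 ± 0.09 log2, adjusted p 1.01e-05). Over the 5 lists of ribosome assembly, ribosomal proteins and translation factors, 137 of 183 distinct genes rose and none fell.

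Nucleotide synthesis followed the same direction. In the purine pathway 8 of 18 genes rose and none fell, with a median of 0.30 log2, and in the pyrimidine pathway 11 of 14 rose and none fell, with a median of 0.51. Atic, which completes the purine ring (chr1:71557156-71579403), had 44.9, 54.9 and 74.9 CPM with Myc and 28.8, 33.4 and 40.8 CPM with mApple. The groups did not overlap, at 0.74 ± 0.09 log2 (adjusted p 2.61e-05). Impdh2, the first enzyme on the way to guanine nucleotides, rose by 0.68 ± 0.12 (adjusted p 0.000433). Ctps, the enzyme that makes CTP from UTP (chr4:120539868-120570276), had 5.3, 9.51 and 21.6 CPM against 1.9, 3.44 and 8.21 CPM. In 9 of 14 Myc livers it was above the highest mApple liver, and its log2 fold change of 1.47 ± 0.25 was the largest of the pathway that passed (adjusted p 0.000396). Cad, which carries the first steps of pyrimidine synthesis, rose by 0.71 ± 0.13 (adjusted p 0.000856).

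Among 11 genes of polyamine synthesis 3 rose: Srm (spermidine synthase, 1.0 ± 0.17 log2, adjusted p 0.000536), Sms (spermine synthase, 0.96 ± 0.24, adjusted p 0.0102, and 0.55 log2 without libraries 860 and 861) and the salvage enzyme Mtap (0.49 log2, adjusted p 0.0037). Odc1, the rate-limiting enzyme of the pathway and a textbook Myc target, had 51.3, 63.1 and 165 CPM with Myc and 46.4, 54.6 and 114 CPM with mApple, and did not pass (0.18 ± 0.20 log2, adjusted p 0.566). Serine and one-carbon metabolism had 1 gene higher of 17, Mat2a, which makes S-adenosylmethionine. Glycolysis and glutamine use had 2 higher and 1 lower of 29, beside 8.4% of all genes higher and 5.96% lower. Ldha, the lactate dehydrogenase often listed as a Myc target, had a value of -0.30 ± 0.11 log2 (adjusted p 0.0753), and Ldhb fell by 0.78 ± 0.17 log2 (adjusted p 0.00401). The chaperonin and heat shock genes had 8 of 19 higher, with the 4 smallest p-values in the chaperonin subunits Cct5, Cct3, Cct7 and Cct2. Splicing and RNA export had 13 of 27 higher, led by Wdr77, Snrpa1, Prmt5 and Prmt1. Mitochondrial ribosome and import genes had 6 of 30 higher, 16 without libraries 860 and 861 and 17 with library totals. Without those libraries 8.82% of all genes were higher and 5.62% lower. The respiratory chain had none of 30 higher and 1 lower.

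Promoters of the growth genes were searched for CACGTG, which reads the same on both strands, in RefSeq windows of GRCm38.p6 (the mm10 build) from 250 bases before to 50 bases after each annotated start. Of the tested genes, 10735 had a window. CACGTG was present in 141 of 908 windows of higher genes (15.5%), 60 of 608 of lower genes (9.87%) and 866 of 9219 of genes that passed in neither direction (9.39%). Over all tested genes, with 1 window each, the share was 1067 of 10735 (9.94%). It was 2349 of 32851 (7.15%) in all windows, which are not limited to 1 per tested gene. By list, it was in 7 of 29 small subunit genes (24.1%), 6 of 29 large subunit genes (20.7%), 4 of 15 translation factors (26.7%) and 4 of 16 purine genes (25%). It was in 2 of 13 pyrimidine genes (15.4%), 2 of 16 genes of ribosomal RNA transcription (12.5%) and 5 of 54 ribosomal protein genes (9.26%). DNA replication had it in 2 of 25 (8%), mitosis in 2 of 32 (6.25%), male-type genes in 1 of 17 (5.88%) and type I interferon genes in 1 of 36 (2.78%). These shares are counts of letters in windows, with no test, and a match is not a binding site. Among 75 higher genes of 7 growth lists with a window, 11 held it in the 250 upstream bases, with the genes of 1 chromosome left out of the 11. The 8 shown here have the smallest p among those 11, and genes of smaller p without the motif are not shown. They are printed to show the motif where the genes of nucleotide synthesis, ribosome assembly and translation start. They read 5′ to 3′ along the gene's strand, with the motif in capitals.
Atic promoter, chr1:71557104-71557155, plus strand: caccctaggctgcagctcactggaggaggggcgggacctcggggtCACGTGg
Impdh2 promoter, chr9:108560281-108560376, plus strand: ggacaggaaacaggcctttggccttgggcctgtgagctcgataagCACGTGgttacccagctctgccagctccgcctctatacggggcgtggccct
Eif4a1 promoter, chr11:69672562-69672657, minus strand: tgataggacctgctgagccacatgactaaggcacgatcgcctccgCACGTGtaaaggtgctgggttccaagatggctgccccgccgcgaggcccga
Nop2 promoter, chr6:125131778-125131873, plus strand: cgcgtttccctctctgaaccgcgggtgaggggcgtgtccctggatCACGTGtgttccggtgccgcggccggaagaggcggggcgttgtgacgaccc
Cd3eap promoter, chr7:19359651-19359733, minus strand: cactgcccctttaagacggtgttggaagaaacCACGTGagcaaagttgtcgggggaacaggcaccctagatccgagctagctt
Rrn3 promoter, chr16:13780606-13780698, plus strand: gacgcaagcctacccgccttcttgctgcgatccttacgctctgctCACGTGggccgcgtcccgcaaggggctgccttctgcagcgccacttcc
Dtymk promoter, chr1:93802032-93802127, minus strand: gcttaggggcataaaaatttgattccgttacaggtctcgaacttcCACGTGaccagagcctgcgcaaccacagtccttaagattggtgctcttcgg
Tyms promoter, chr5:30073636-30073731, minus strand: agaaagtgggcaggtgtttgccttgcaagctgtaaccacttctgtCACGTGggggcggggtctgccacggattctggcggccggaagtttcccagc
The motif begins 7 bases before the annotated start in Atic, 60 in Nop2, a methyltransferase of ribosomal RNA, and 61 in Tyms, the thymidylate synthase. It begins 110 bases before the start in Impdh2, 148 in the thymidylate kinase Dtymk, 189 in the translation initiation helicase Eif4a1 and 218 in Cd3eap, a subunit of RNA polymerase I. In Rrn3, an initiation factor of RNA polymerase I, it begins 48 bases before the start and the upstream bases hold 2 copies.

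Mitosis genes had the highest median of the 57 lists, whose members were chosen with earlier results of these data known. All 40 tested mitosis genes rose, with a median of 2.23 log2 and a range of 1.0 to 3.02, and of 31 DNA replication genes 20 rose and none fell, with a median of 0.73. Of 21 genes that control the passage from G1 to S phase 9 rose and none fell. Levels stayed low and varied widely among Myc livers: the 40 mitosis genes summed to 77.3, 214 and 1069 CPM with Myc and 37.5, 93.5 and 196 CPM with mApple, and 8 of 14 Myc livers were above the highest mApple liver. As these are whole livers, more cells of a kind and more RNA per cell cannot be told apart.

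Ccnb1, the cyclin that drives entry into mitosis (chr13:100778739-100786486), had 1.31, 5.25 and 23.9 CPM with Myc and 0.121, 0.899 and 3.04 CPM with mApple. In 12 of 14 Myc livers it was above the highest mApple liver, and its log2 fold change was 3.02 ± 0.52 (adjusted p 0.000499). Its kinase Cdk1 had 3.63, 6.31 and 22.8 CPM against 0.784, 2.15 and 3.71 CPM, with 13 of 14 above (2.12 ± 0.33 log2, adjusted p 0.000233). Cdc20, an activator of the anaphase-promoting complex, rose by 2.80 ± 0.46 log2 (adjusted p 0.000312). Foxm1, the transcription factor of the G2 and M phase genes, rose by 2.33 ± 0.37 (adjusted p 0.000289). Of the replication genes, Mcm6, a subunit of the replicative helicase, had 7.35, 15.3 and 63.9 CPM against 3.74, 5.93 and 12.6 CPM, with 10 of 14 above (1.59 ± 0.24 log2, adjusted p 0.000209). Pole, the catalytic subunit of polymerase epsilon, rose by 1.55 ± 0.25 (adjusted p 0.0003). E2f3, a transcription factor of the G1 to S transition, separated the groups, at 13.2, 16.2 and 18.8 CPM against 6.75, 9.69 and 11.6 CPM (0.75 ± 0.09 log2, adjusted p 2.61e-05). Mcph1, a regulator of chromosome condensation, also separated them, at 5.11, 7.57 and 9.08 CPM against 2.17, 3.04 and 3.94 CPM (1.24 ± 0.12 log2, adjusted p 1.32e-06). The summed mitosis level was higher in the first batch in both groups, with medians of 528 CPM (Myc) and 139 CPM (mApple) there and 180 and 42.9 CPM in the second. In the second batch alone, where 7.13% of genes were higher and 3.66% lower, 36 mitosis genes and 7 DNA replication genes passed as higher. Without libraries 860 and 861, 15 DNA replication genes passed, with a median of 0.44 log2, and without 864 and 865 as well 13 did.

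Brakes on the cell cycle changed less. Of 21 CDK inhibitors, p53 targets and senescence genes 5 rose and none fell, beside 8.4% of all genes higher and 5.96% lower. They include Zmat3, an RNA-binding target of p53 (0.87 ± 0.15 log2, adjusted p 0.000561), the CDK4 and CDK6 inhibitor Cdkn2c (1.07 ± 0.22, adjusted p 0.00198) and Trp53 itself (0.41 ± 0.09, adjusted p 0.0038). Cdkn1a, which encodes p21, had 17.4, 42.3 and 195 CPM with Myc and 13, 67.8 and 354 CPM with mApple, and did not pass (-0.24 ± 0.30 log2, adjusted p 0.64). Of 21 apoptosis genes 2 rose (Bak1 and Bax, which permeabilise mitochondria) and 2 fell (Bcl2l1, which opposes them, and the initiator caspase Casp9). These counts are near the shares of all genes. None of these 4 calls was stable. Without libraries 860 and 861 the adjusted p was 0.0641 for Bak1 and 0.0683 for Bax. With library totals it was 0.222 for Bcl2l1 and 0.279 for Casp9. Of 19 genes described elsewhere as repressed by Myc, only Ndrg1 passed (-0.70 ± 0.20 log2, adjusted p 0.022), and scaling to library totals ended that call (adjusted p 0.112).

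Among genes that passed, Sult2a7 and Smpdl3b had the highest log2 fold changes. Smpdl3b, a membrane enzyme of the sphingomyelinase family (chr4:132732966-132757171), had 2.71, 8.01 and 18.2 CPM with Myc and 0.409, 0.876 and 2.7 CPM with mApple. The groups only just failed to touch, and the log2 fold change was 3.25 ± 0.28 (adjusted p 6.94e-07). Sult2a7, a sulfotransferase of a family of close copies on chromosome 7, had 0.933, 46.3 and 137 CPM against 0.932, 2.14 and 16.4 CPM. Here 12 of 14 Myc livers were above the highest mApple liver, at 3.92 ± 0.79 log2 (adjusted p 0.00191). The other 10 of the 12 highest changes in that ranking were genes of mitosis and the spindle: Ckap2, Ccnb1, Hmmr, Cenpe, Cdc20, Cenpf, Aspm, Kif4, Ccnb2 and Kif2c.

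**Figure D2:**
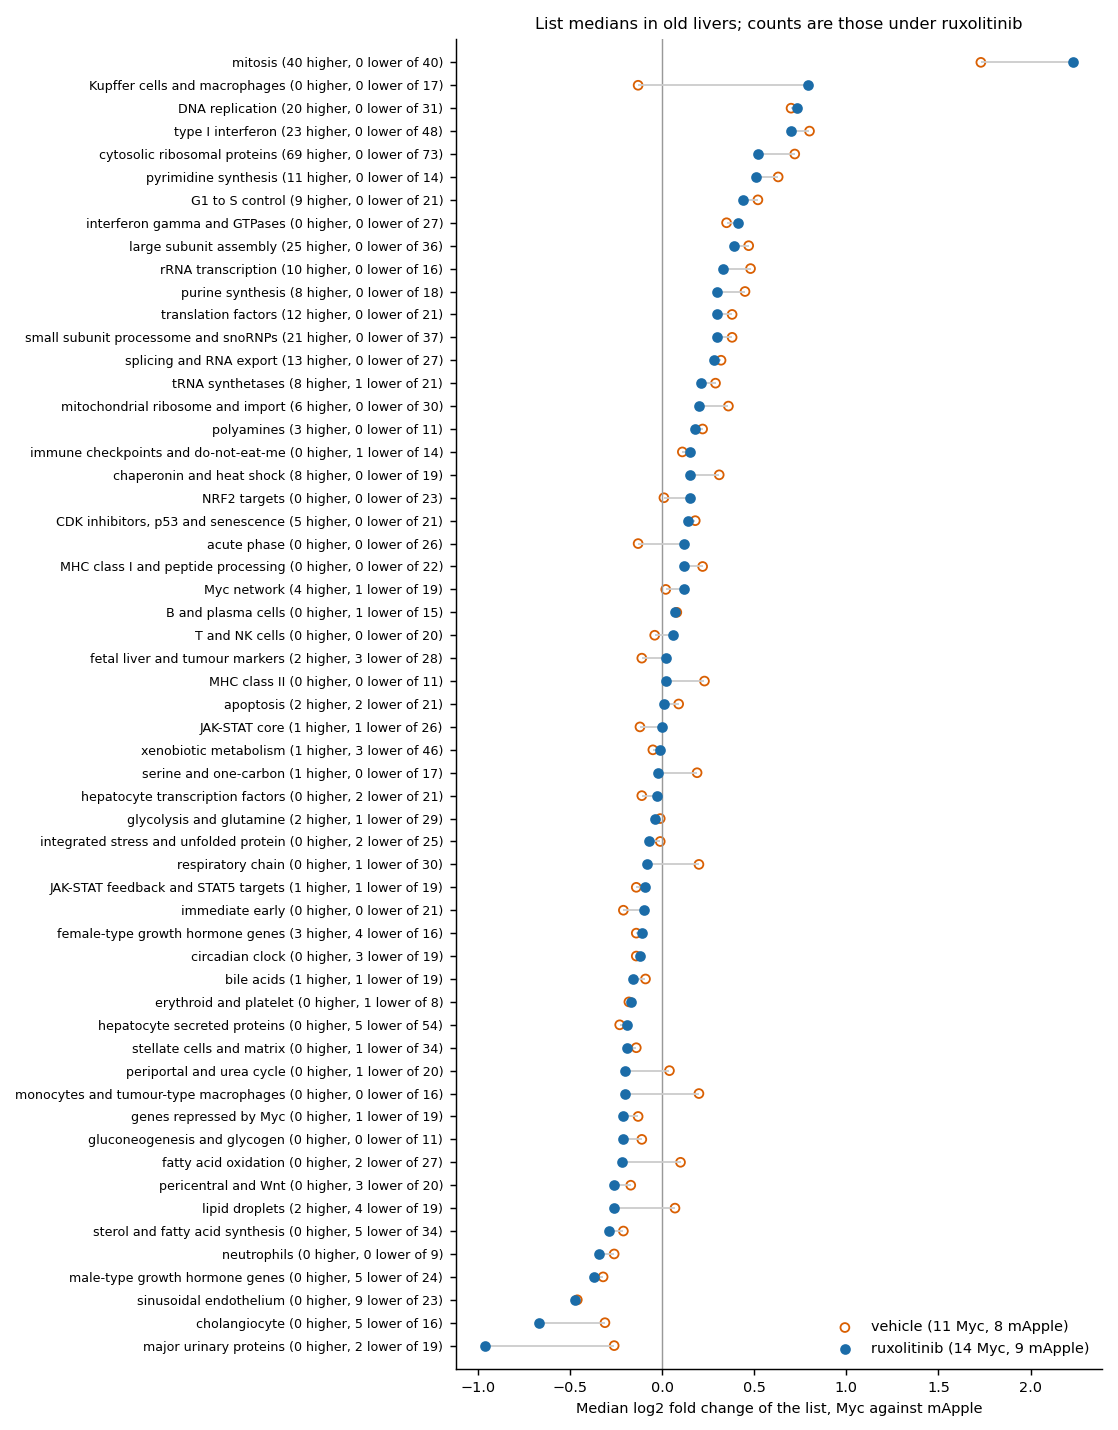
Median log2 fold change, Myc against mApple, of each of 57 gene lists, with filled points for ruxolitinib livers, open points for vehicle livers and the number of members higher and lower beside each name. Mitosis, at 2.23, lies farthest to the right, and male-type growth hormone genes (-0.37) and sterol and fatty acid synthesis (-0.29) lie below 0.

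Hepatocyte genes that fell included some of the male pattern set by growth hormone. Of 24 male-type genes 5 fell and none rose, with a median of -0.37 log2, beside 5.96% of all genes lower. Without libraries 860 and 861 the count was 5 and the median -0.21. Elovl3, an elongase of very long chain fatty acids (chr19:46131899-46135694), had 1.24, 41.3 and 127 CPM with Myc and 9.92, 292 and 656 CPM with mApple. The batches differed in level: in the second all 10 Myc livers (9.13 to 127 CPM) were below all 5 mApple livers (292 to 656 CPM), and in the first they overlapped. The log2 fold change was -2.76 ± 0.43 (adjusted p 0.000233). Hsd3b5, a steroid dehydrogenase of male liver, fell by 3.15 ± 0.82 log2 (adjusted p 0.0123), and the organic anion transporter Slco1a1 fell by 2.08 ± 0.55 (adjusted p 0.0136). For both the groups overlapped in the first batch. In the second, mApple liver 1140 had 1.14 CPM of Hsd3b5 and 26.8 CPM of Slco1a1. The other mApple livers of that batch had 68.4 to 122 and 355 to 433 CPM. The complement component C6 had 46.6, 134 and 165 CPM against 149, 281 and 362 CPM, with 9 of 14 Myc livers below the lowest mApple liver (-1.11 ± 0.19 log2, adjusted p 0.000579).

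Of 16 female-type genes 3 rose and 4 fell, and without libraries 860 and 861 it was 5 and 2. Of all genes 8.4% were higher and 5.96% lower. The cytochromes Cyp2b9 (2.08 ± 0.59 log2, adjusted p 0.0202) and Cyp2b13 (2.14 ± 0.59, adjusted p 0.0173), near copies of each other, rose, as did Atp6v0d2, a subunit of the vacuolar proton pump (1.67 ± 0.46, adjusted p 0.0178). Cyp2c69 fell by 0.90 ± 0.22 log2 (adjusted p 0.00781) and the steroid hydroxylase Cyp17a1 had a log2 fold change of -1.28 ± 0.36 (adjusted p 0.0185). Cyp17a1 did not pass without libraries 860 and 861 (adjusted p 0.0529). Of the major urinary protein genes, male-type secreted proteins with many close copies, 2 of 19 fell (Mup21 and, at an adjusted p of 0.0578 without libraries 860 and 861, Mup8). The list's median was -0.27 log2 in the first and -1.24 in the second batch.

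A few lipid genes changed. Of 34 genes of sterol and fatty acid synthesis 5 fell and none rose, beside 5.96% of all genes lower, with a median of -0.29 log2. Fads1, the delta-5 desaturase, had 235, 444 and 652 CPM with Myc and 621, 715 and 966 CPM with mApple. In 12 of 14 Myc livers it was below the lowest mApple liver, at -0.72 ± 0.14 log2 (adjusted p 0.0014). The elongase Elovl5 fell by 1.17 ± 0.27 (adjusted p 0.00564). Of 27 genes of fatty acid oxidation and its control 2 fell, a share near that of all genes. The list's median was -0.22 log2, -0.04 without libraries 860 and 861 and 0.10 under vehicle. The genes that fell were Pdk4, the kinase that shuts off pyruvate dehydrogenase (-1.34 ± 0.27 log2, adjusted p 0.00188), and the hepatokine Fgf21 (-1.43 ± 0.45, adjusted p 0.0358, and 0.0681 without libraries 860 and 861). Of 19 lipid droplet genes 4 fell (2 with library totals) and 2 rose, and under vehicle none passed. Plin2, the coat protein of lipid droplets, fell by 0.54 ± 0.14 log2 (adjusted p 0.0108, but 0.0901 when scaled to library totals). Lipoprotein lipase (Lpl) rose by 1.43 ± 0.39 (adjusted p 0.0159, and 0.0687 without libraries 860 and 861), and the fatty acid transporter Cd36 by 0.57 ± 0.18 (adjusted p 0.0323, and 0.0961 without them).

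Other hepatocyte functions moved little. Of 54 secreted proteins 5 fell and none rose, near the 5.96% of all genes, and 2 fell without libraries 860 and 861, with Serpina3k (-0.84 ± 0.19 log2, adjusted p 0.00464) and apolipoprotein Apoa1 (-0.52 ± 0.14, adjusted p 0.0168) among them. Foxa3, a hepatocyte transcription factor, fell by 0.65 ± 0.16 log2 (adjusted p 0.00954). Hnf4a, a main regulator of hepatocyte identity, had 372, 632 and 763 CPM with Myc and 587, 739 and 946 CPM with mApple (-0.33 ± 0.12 log2, adjusted p 0.0672). Xenobiotic metabolism had 1 higher and 3 lower of 46 (4 higher without libraries 860 and 861), periportal genes 1 lower of 20 (Tat, tyrosine aminotransferase, whose call ended without libraries 860 and 861) and pericentral genes 3 lower of 20 (1 with library totals). Of 28 fetal liver and tumour markers 2 rose and 3 fell, and none fell without libraries 860 and 861 or with library totals. H19, an imprinted RNA of fetal liver, rose by 1.53 ± 0.38 log2 (adjusted p 0.00895), while alpha-fetoprotein (Afp) did not pass (0.52 ± 0.23, adjusted p 0.125). Of 19 clock genes 3 fell: Npas2, a partner of Bmal1 (-1.47 ± 0.33 log2, adjusted p 0.00481), the nuclear receptor Rora (-0.65 ± 0.12, adjusted p 0.000867) and the repressor Cry1.

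The decreases that separated the groups best lay outside these lists. Gabbr2, a subunit of the receptor for the neurotransmitter GABA (chr4:46663898-46991714), had 2.44, 8.22 and 13 CPM with Myc and 21.6, 26.4 and 42.2 CPM with mApple. No Myc liver reached the lowest mApple liver, and the log2 fold change was -1.94 ± 0.22 (adjusted p 9.95e-06). Adgrf1, an adhesion receptor, had 13 of 14 Myc livers below the lowest mApple liver (-2.0 ± 0.27 log2, adjusted p 5.3e-05). Dhrs1, a short-chain dehydrogenase, had 64.5, 91.2 and 105 CPM against 111, 135 and 153 CPM, with no overlap (-0.64 ± 0.07 log2, adjusted p 7.91e-06). Zbtb16, a transcription factor induced by glucocorticoids, fell by 1.63 ± 0.33 log2 (adjusted p 0.00187). Srgap3, a regulator of Rac signalling, was lower by 2.04 ± 0.49 log2 (adjusted p 0.00689), with 0.37 in the first and -3.17 in the second batch.

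Interferon-induced genes were higher with Myc in these livers, all of which had received the JAK inhibitor. Of 48 type I interferon genes 23 rose and none fell, with a median of 0.70 log2, beside 8.4% of all genes higher. The list was chosen with earlier results of these data known. Irf7, the transcription factor that amplifies the response (chr7:141263183-141266424), had 20.1, 152 and 237 CPM with Myc and 15.3, 41.8 and 112 CPM with mApple. In 9 of 14 Myc livers it was above the highest mApple liver, at 1.85 ± 0.45 log2 (adjusted p 0.00807). The antiviral genes Oas1a (2.20 ± 0.56 log2, adjusted p 0.0101) and Mx1 (1.86 ± 0.47, adjusted p 0.00954) also rose, and Isg15, a ubiquitin-like protein, did not pass (1.38 ± 0.47, adjusted p 0.0512). Usp18, which removes Isg15 from proteins and blocks the interferon receptor, was at 1.41 ± 0.47 log2 (adjusted p 0.0451), with -0.06 in the first and 2.31 in the second batch, and leaving out any of 13 single libraries ended its call. Oasl2 (2.03 ± 0.63, adjusted p 0.0321) lost its call without libraries 860 and 861 (adjusted p 0.0659).

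The interferon genes split the second batch. Irf7 had 40.3, 20.1 and 30.6 CPM in Myc livers 1149, 1154 and 1158 and 79.5 to 237 CPM in the other 7 Myc livers. Of the 5 mApple livers, 4 had 15.3 to 16.7 CPM and the fifth, 1140, had 50.7 CPM. Livers 1149, 1154 and 1158, and 1150 with them, also had the highest acute phase sums of the Myc group (57931 to 65466 CPM, against 22763 to 31670 CPM in its other 10 livers). The part of either difference in the other was not tested. Summed over the 48 genes, the Myc livers had 869, 1668 and 2548 CPM and the mApple livers 708, 948 and 1276 CPM, and 10 of 14 Myc livers were above the highest mApple liver. The list's median was 0.38 log2 in the first and 1.08 in the second batch, and 17 genes passed without libraries 860 and 861 and 14 without 864 and 865 as well.

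The JAK-STAT pathway itself changed in few genes, beside 8.4% of all genes higher and 5.96% lower. Of 26 core genes 1 rose, Irf9, the DNA-binding subunit of the interferon-activated complex (0.67 ± 0.18 log2, adjusted p 0.0178). Another, Lifr, the receptor of leukaemia inhibitory factor, fell, with 53, 93.1 and 131 CPM against 77.8, 143 and 183 CPM (-0.66 ± 0.12, adjusted p 0.000749). Of 19 feedback genes and STAT5 targets 1 rose, the phosphatase Ptpn2 (0.23 ± 0.06 log2, adjusted p 0.0178). Socs2, a feedback inhibitor of growth hormone signalling, was at -1.0 ± 0.33 log2 (adjusted p 0.0456), a call that ended when any of 15 single libraries was left out. Cish (-0.01 ± 0.54) and Socs3 (-0.36 ± 0.56) did not pass. The growth hormone receptor Ghr had -0.56 ± 0.20 log2 (adjusted p 0.0655) and Igf1 -0.16 ± 0.14 (adjusted p 0.478). None of 27 interferon gamma genes and GTPases, 22 MHC class I genes, 11 MHC class II genes and 26 acute phase genes passed with all 23 libraries and TMM. In the second batch alone 3 interferon gamma genes, 6 MHC class I genes and 4 acute phase genes were higher. With library totals 4 interferon gamma genes and 3 MHC class I genes were higher, and without libraries 860, 861, 864 and 865 6 acute phase genes were.

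Markers of sinusoidal endothelium were lower with Myc. Of 23 markers 9 fell and none rose, with a median of -0.47 log2, beside 5.96% of all genes lower. Flt1, a receptor of vascular endothelial growth factor (chr5:147562196-147725988), had 2.99, 8.72 and 12.7 CPM with Myc and 7.48, 13.6 and 17.6 CPM with mApple. In 5 of 14 Myc livers it was below the lowest mApple liver (-0.65 ± 0.15 log2, adjusted p 0.0047). Wnt9b, a Wnt ligand made by endothelium around the central vein, had 0.195, 0.708 and 1.64 CPM against 1.21, 1.45 and 3.5 CPM, with 12 of 14 below (-1.13 ± 0.26 log2, adjusted p 0.0051). Kdr (-0.62 ± 0.19, adjusted p 0.0276) and Clec4g (-0.64 ± 0.19, adjusted p 0.0283) passed with all libraries, at an adjusted p of 0.0621 and 0.0739 without libraries 860 and 861, and Stab2 (-0.39 ± 0.15, adjusted p 0.0733) did not. Without libraries 860 and 861, 4 markers passed, without 864 and 865 as well 7 did, with library totals 4 did, and in the second batch alone 1 did. Of all genes 5.62% were lower without libraries 860 and 861 and 3.66% in the second batch alone. The 1 of 23 in the second batch is near that batch's share.

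Markers of other cells varied widely among libraries, and few passed. Kupffer cell and macrophage markers summed to 369, 794 and 9060 CPM with Myc and 363, 763 and 2318 CPM with mApple, and none of 17 passed. Clec4f, a lectin of Kupffer cells, had 39.7, 79.8 and 611 CPM against 37.4, 56.7 and 193 CPM (0.85 ± 0.32 log2, adjusted p 0.0735), with its 611 CPM in library 860. The list's median was 1.96 log2 in the first and 0.15 in the second batch. Of 16 cholangiocyte markers 5 fell, but without libraries 860 and 861 only 1 did and without 864 and 865 as well, or with library totals, none did. Epcam, an epithelial marker of bile ducts, had 18.1 CPM in mApple library 865, against a median of 4.05 CPM in its group and 2.37 CPM with Myc (-1.01 ± 0.33 log2, adjusted p 0.0417, and 0.132 without libraries 860 and 861). None of 9 tested neutrophil markers, 20 of T and NK cells or 16 of monocytes passed. Of 34 stellate cell and matrix genes 1 fell (Rgs5, -0.94 ± 0.31 log2, adjusted p 0.0422). Of 15 B and plasma cell genes Sdc1 fell (-0.45 ± 0.14, adjusted p 0.0373). Of 8 erythroid and platelet genes Alas2 fell (-0.94 ± 0.25, adjusted p 0.0132). Without libraries 860 and 861 these lists had 0, 0 and 1 lower. Of all genes 5.96% were lower with all libraries.

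Myc against mApple in the vehicle livers of the same age, 11 and 8 libraries that share none with the ruxolitinib livers, gave 1459 higher genes (10.8%) and 1085 lower (8.01%) of 13547. Of 1152 genes higher under ruxolitinib and tested in both, 1119 (97.1%) had a positive value under vehicle, where 47% of all genes were positive, and their median was 0.51 log2 there against 0.52 under ruxolitinib. Of 817 genes lower under ruxolitinib, 767 (93.9%) were negative under vehicle, with a median of -0.30 against -0.48. These genes were selected on the ruxolitinib values, which favours larger values there. Calls were shared in 765 higher genes (66.4% of those under ruxolitinib, 52.4% of those under vehicle) and 323 lower genes (39.5% and 29.9%), and no gene was called in opposite directions.

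The effect of Myc did not differ detectably between drug and vehicle in any gene: the test of the difference, over 42 libraries, called 0 of 14046 genes (0%), with 735 at an unadjusted p under 0.05 and a smallest adjusted p of 0.816. DESeq2 also called 0, with 798 at an unadjusted p under 0.05. For Myc the difference was 0.86 ± 0.44 log2 (2.54 under ruxolitinib, 1.70 under vehicle). Among the genes described above, the effect on Elovl3 was -2.76 log2 under ruxolitinib and -1.13 under vehicle, a difference of -1.52 ± 0.62. The effect on Pdk4 was -1.34 and -0.32, a difference of -1.01 ± 0.40, and that on Plin2 was -0.54 and 0.06, a difference of -0.60 ± 0.19. For Irf7 the difference was 0.41 ± 0.54 and for Nop56 it was 0.01 ± 0.24. Each of these genes had an adjusted p of 0.816 or more, and errors of this size leave moderate differences undetectable.

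By list, the ribosomal proteins had 69 of 73 genes higher under ruxolitinib and 72 under vehicle, with medians of 0.52 and 0.72 log2, and mitosis had 40 of 40 and 36 of 39, with medians of 2.23 and 1.73. Type I interferon genes had 23 and 31 higher, with medians of 0.70 and 0.80. Other lists were less alike. Mitochondrial ribosome and import genes had 6 and 22 of 30 higher, with medians of 0.20 and 0.36. The respiratory chain had 0 and 6 of 30 higher, with medians of -0.08 and 0.20. All genes had 8.4% and 10.8% higher. Kupffer cell and macrophage markers had medians of 0.79 and -0.13, with 0.16 under ruxolitinib without libraries 860 and 861. Sinusoidal markers had 9 and 17 lower, with medians of -0.47 and -0.46, and the major urinary proteins had medians of -0.96 and -0.26. Of 26 JAK-STAT core genes 1 and 6 were lower and 1 and 0 higher, beside 5.96% and 8.01% of all genes lower. None of these list differences was tested, and no member passed the test of the difference.

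**Figure D3:**
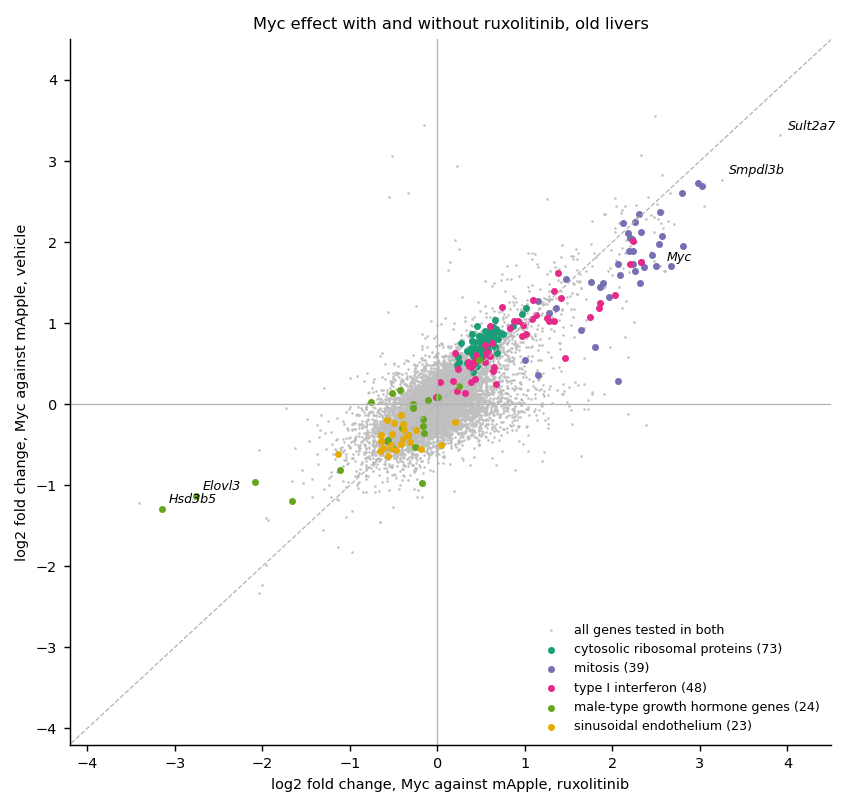
Log2 fold change of Myc against mApple under ruxolitinib (horizontal) and under vehicle (vertical) for 13529 genes, in grey, with 5 lists in colour and the dashed line of equal values. Of the 5 lists, mitosis has the highest median under ruxolitinib (2.23) and under vehicle (1.73), and Sult2a7 and Smpdl3b lie farther to the right than any mitosis gene. Ribosomal proteins form a tight group to the right of and above 0, and the interferon genes spread along the line.

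The batches were compared by the same kind of test: edgeR called 0 of 14298 genes (0%) as changed by Myc to a different extent in the second batch than in the first, with 2126 at an unadjusted p under 0.05 and a smallest adjusted p of 0.074. DESeq2 called 180. Ribosomal protein genes had a median of 0.64 log2 in the first and 0.46 in the second batch, purine genes 0.28 and 0.33, and pyrimidine genes 0.51 and 0.38. DNA replication had a median of 1.17 log2 in the first and 0.40 in the second batch.

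**Figure D4:**
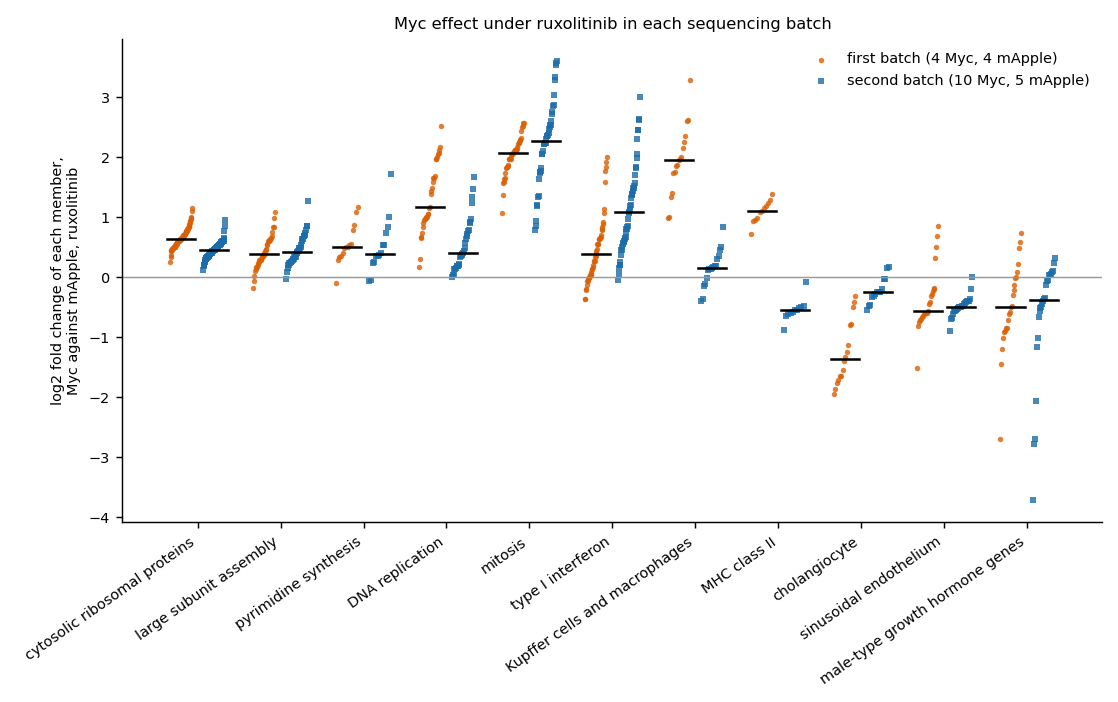
Log2 fold change, Myc against mApple under ruxolitinib, of each member of 11 gene lists in the first and in the second batch, with a bar at each median. Type I interferon genes have a median of 0.38 in the first and 1.08 in the second batch, and Kupffer markers 1.96 and 0.15.

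Within the 14 Myc livers, expression was also fitted against the level of Myc, with batch as a covariate. At an adjusted p under 0.05, 804 genes (5.53%) rose and 250 (1.72%) fell with it, of 14541. This rests on single libraries: 0 genes passed without library 869, which had the most Myc (114 CPM), 1 without 861, and 2983 without 1149. None passed without 860 and 861 or in the second batch alone.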

How the data were processed

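RNA-seq of whole mouse livers was analysed from the table of exon counts per gene that the authors deposited. Per the file headers it was made with HOMER's analyzeRepeats.pl on mm10, counting exons, condensing isoforms to genes and leaving values raw. The submitters' processing notes name STAR and HOMER, with versions not given in the sources used here. No strand setting is stated, so genes that overlap on opposite strands share reads. The deposited values are estimated counts in steps of 0.5 (29.9% not whole), and they were rounded to whole counts. Of 24537 genes, 393 have more than 1 annotated copy.

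Genes were kept by edgeR's filterByExpr (minimum count 10), scaled by TMM and tested with the quasi-likelihood test (edgeR 4.0.16, R 4.3.3), with batch as a covariate and Benjamini-Hochberg adjustment at 0.05. The fit was tested on simulated data. CPM use TMM-scaled library sizes, and SE is the log2 fold change divided by the square root of F. The drug and batch differences were interaction terms. DESeq2 1.42.0, limma 3.58.1 (voom), other scalings and filters, single batches and left-out libraries were the alternatives. Leaving out libraries 860 and 861, or these with 864 and 865, was chosen after seeing the data. Myc level was log2(CPM + 1).

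Genes named are Myc, the 12 largest increases and decreases with a mean log2 CPM of at least 1, the 4 members of smallest p in each of 57 lists, and other list members with a known role. The members and lists were chosen with earlier results of these data known. Depth limits genes of a few counts, and intervals cover the spread between libraries only.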

Additional observations from a re-analysis of the deposited data

Results flagged for a closer look

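In the 9 mApple livers, 67 genes were examined for a single liver far from the rest by Dixon's test, which chance alone meets in about 1 of 20 groups; 13 genes met it. Liver 857 stood apart in 4 of them: Smpdl3b was highest there at 2.7 CPM, Cyp2b9 at 58.8 CPM and Cyp2b13 at 10.4 CPM, and Rpl12 was lowest at 107 CPM. Liver 865 was highest for Ctps at 8.21 CPM and for Epcam at 18.1 CPM. In liver 864 albumin (Alb) was lowest at 31908 CPM and Clec4f was highest at 193 CPM. Liver 1140 was highest for the interferon genes Oas1a, at 12.4 CPM, and Isg15, at 11.4 CPM. Single genes stood apart in liver 1139 (Dkc1, 18.2 CPM), liver 1143 (Socs2, 19.6 CPM) and liver 856 (Fads1, 966 CPM). The group of 14 Myc livers is outside the range of the test.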

How the results depend on the processing

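Of 1177 higher and 835 lower genes, 1284 of the 2012 calls held when any single library was left out, and the counts then ran from 920 to 1340 higher and from 618 to 966 lower (both lowest without 1143). The numbers higher and lower were 0 and 0 in the first batch alone, 2042 and 305 with library totals, 649 and 384 without the batch term and 1828 and 1678 with limma voom, and 503 genes were lower in the second batch alone. The test between batches called 180 genes with DESeq2 and 0 with edgeR. The count that followed the Myc level was 1054, and it was 0 without 868 and 869, 0 without 860 and 861, 0 in the second batch alone, and 0 to 2983 with single libraries left out. Among named values past the threshold in either setting, the sign changed in Usp18 (-0.06) and Srgap3 (0.37) in the first batch and the neutrophil gene Ngp without 864 (2.98, against -2.20 with all libraries and -2.57 at the lowest). Values that did not pass changed sign too, as with Odc1 (-0.04 in the first batch). The causes were not tested. No paired analysis was possible because the library numbers are unique to each library. Batch and age cannot be told apart.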

Other observations

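Host genes of small nucleolar RNAs, a group chosen after its values were seen, rose with Myc under ruxolitinib: 13 of 19 tested were higher, none was lower and the median was 0.83 log2. Without libraries 860 and 861 the count was 13. Zfas1 had a median of 23.9 CPM with Myc and 5.73 CPM with mApple, at 1.77 ± 0.22 log2 (adjusted p 2.98e-05 by edgeR's quasi-likelihood test). Gas5 rose by 0.95 ± 0.15 (adjusted p 0.000252) and Snhg12 by 0.99 ± 0.12 (adjusted p 2.61e-05). In the vehicle livers 15 of 18 were higher, with a median of 1.06 log2. Pvt1, the long RNA gene that neighbours Myc on chromosome 15, rose by 1.3 ± 0.18 log2 (adjusted p 6.58e-05).

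Pitx3, a transcription factor gene also noticed after its values were seen, had a median of 0.133 CPM with Myc and 1.67 CPM with mApple (-3.41 ± 0.45 log2, adjusted p 4.4e-05). It lies at chr19:46135686-46148325, and its end overlaps that of Elovl3 (chr19:46131899-46135694) on the other strand by a few bases, where reads cannot be told apart in counts made without strand. Metallothioneins Mt1 and Mt2 did not pass, with 2.18 ± 1.29 log2 (adjusted p 0.267) and 2.14 ± 1.73 (adjusted p 0.433). Their values were -0.63 and -1.51 in the first batch and 3.94 and 4.39 in the second, where the adjusted p was 0.0371 and 0.0373.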
